A study of Mus musculus with 9 samples.

Results

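The 48 genes described here encode proteins of DNA replication and deoxynucleotide synthesis, together with chromatin factors of newly made DNA and regulators of entry into S phase. They were chosen by symbol from the table of read counts, where all 48 were found among 18094 genes. The rule itself names symbols and uses no threshold on the counts, but the genes were listed with earlier results of these data known, so shares over the 48 are descriptions. The counts come from RNA sequencing of total RNA from whole uteri of female mice taken at 13 weeks of age, with 3 libraries in each of 3 groups. Control mice were fed solvent on postnatal days 1 to 5 and later received vehicle injections (their treatment label reads "vesicle"). Mice of the tamoxifen group, labelled AMS and named in the design as the adenomyosis group, were fed 1 mg/kg tamoxifen on the same days and also received vehicle. Mice of the tamoxifen-plus-primidone group, labelled AMS_P and called the primidone group hereafter, had the same neonatal tamoxifen and then 2 mg/kg primidone a day by intraperitoneal injection for 3 weeks from week 10. Tamoxifen is an estrogen receptor ligand that acts partly as an agonist in the mouse uterus, and dosing of newborn mice is a way to produce adenomyosis, the growth of endometrial glands and stroma into the muscle wall. Primidone is an anticonvulsant drug. There was no group given primidone without tamoxifen. The sources used here give neither the estrous stage at collection nor whether a library pools animals, so p-values measure the spread between these libraries.

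DNA replication starts at origins, where the origin recognition complex, Cdc6 and Cdt1 load the Mcm2-7 helicase in G1. Cyclin-dependent kinases then recruit Cdc45 and the GINS complex, and polymerases alpha, delta and epsilon copy the strands with the help of primase, the sliding clamp Pcna and its loader. Most of these genes are transcribed in proliferating cells by E2F factors once the retinoblastoma protein releases them. In the adult mouse uterus, epithelial cells divide in waves over the estrous cycle under estrogen, with progesterone shifting proliferation towards the stroma.

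The libraries held between 36393120 and 39958443 counts, and all 48 genes passed the filter on low counts with 15186 genes tested. The tissue label was checked against marker genes. The summed CPM (counts relative to the TMM-normalised library total) of 6 epithelial markers lay between 2487 and 3729, those of 6 stromal markers between 3125 and 4784, and those of 5 smooth muscle markers between 4963 and 10156. No marker of these 3 lists was at 0 in any library. Exons of 17 of the genes overlap those of another gene in the GENCODE annotation of GRCm38 (used for neighbours only), 12 of them a gene of the count table: Tk1 overlaps Afmid, Lig1 overlaps Zswim9, Rfc4 overlaps Eif4a2, and Mcm7 overlaps Ap4m1 and Cops6. The sources used here do not say whether counting used strand, so such reads cannot be told apart. Primidone library 1 stood apart from primidone libraries 2 and 3 in the replication genes, and many results are given with and without it. It was singled out after these values were seen, so results without it are descriptions.

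Promoters are shown first because many of these genes share a short regulatory sequence that the choice of genes did not use. RefSeq promoter windows of 300 bases (250 before to 50 after the annotated start, assembly GRCm38.p6) were at hand for 40 of the 48 genes. Mcm4, Gins1, Gins2, Gins4, Rfc2, Prim2, Pole and Ccne2 were not matched. The E2F motif was searched as TTTCCCGC, TTTCGCGC, TTTGCCGC or TTTGGCGC on both strands. Some genes have more than 1 window (46 windows for the 40 genes), and a gene was counted where any of its windows held a match. This was so for 16 of the 40 genes, which is 40% (95% Wilson interval 26.3% to 55.4%), against 4.30% of 11958 tested genes with a window and 2.605% of all 27025 genes. Counted per single window, the share over all 32851 windows was 2.26%. The CCAAT box, searched as CCAAT on both strands, occurred in 24 of the 40 genes, or 60%, against 42.4% of tested genes and 41.1% of all genes. The cell cycle homology region (CHR), searched as TTTGAA on both strands, occurred in 6, or 15.0%, against 14.9% of tested genes and 20.2% of all genes. In the narrower window from 150 bases before to 50 after the start, the CHR share stayed at 15.0% while that of tested genes was 8.76%, and the E2F shares were 37.5% and 3.15%. The windows of the 40 genes were also richer in G and C, with a median of 61.3% against 52.7% over all windows, which bears on any match count for a motif rich in these bases; its part was not tested. The 5 windows printed here are the 4 with an E2F match and the 1 without whose genes had the smallest p-values for a difference among the 3 groups. Each is written 5′ to 3′ on the gene's strand, with the E2F match in capitals. A match is a description of letters and not a shown binding site.
Pola1 (chrX:93632106-93632405, minus strand): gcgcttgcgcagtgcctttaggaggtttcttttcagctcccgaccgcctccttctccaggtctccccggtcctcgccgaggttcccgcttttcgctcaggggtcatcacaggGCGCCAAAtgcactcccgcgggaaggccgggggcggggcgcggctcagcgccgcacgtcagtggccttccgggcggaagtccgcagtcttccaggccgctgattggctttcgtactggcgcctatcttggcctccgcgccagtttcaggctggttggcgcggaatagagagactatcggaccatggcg
Pold1 (chr7:44548766-44549065, minus strand): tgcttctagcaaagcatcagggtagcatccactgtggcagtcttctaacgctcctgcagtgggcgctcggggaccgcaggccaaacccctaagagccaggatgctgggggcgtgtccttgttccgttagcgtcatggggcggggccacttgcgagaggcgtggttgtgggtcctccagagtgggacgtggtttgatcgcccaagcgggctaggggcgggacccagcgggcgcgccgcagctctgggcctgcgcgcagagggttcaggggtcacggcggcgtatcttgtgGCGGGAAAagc
Mcm3 (chr1:20820263-20820562, minus strand): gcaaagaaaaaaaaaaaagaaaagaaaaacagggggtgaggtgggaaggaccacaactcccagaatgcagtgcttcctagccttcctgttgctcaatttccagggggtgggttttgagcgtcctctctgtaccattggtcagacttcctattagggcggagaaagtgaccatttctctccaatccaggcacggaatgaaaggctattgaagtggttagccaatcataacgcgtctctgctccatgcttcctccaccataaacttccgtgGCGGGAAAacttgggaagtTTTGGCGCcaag
Mcm7 (chr5:138171834-138172133, minus strand): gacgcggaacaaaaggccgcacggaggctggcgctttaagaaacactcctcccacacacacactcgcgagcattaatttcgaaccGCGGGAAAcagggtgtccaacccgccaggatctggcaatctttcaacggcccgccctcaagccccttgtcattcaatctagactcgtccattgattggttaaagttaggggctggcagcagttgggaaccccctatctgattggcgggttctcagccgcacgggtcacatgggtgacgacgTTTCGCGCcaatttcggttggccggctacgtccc
Hmgn2 (chr4:133967942-133968241, minus strand): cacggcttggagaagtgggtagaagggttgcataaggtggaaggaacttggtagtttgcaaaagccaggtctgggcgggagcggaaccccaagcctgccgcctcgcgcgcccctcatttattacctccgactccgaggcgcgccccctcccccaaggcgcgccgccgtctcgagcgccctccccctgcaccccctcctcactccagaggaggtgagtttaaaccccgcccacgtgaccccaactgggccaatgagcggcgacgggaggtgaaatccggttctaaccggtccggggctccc

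The match in Pola1 began 138 bases before the annotated start, and that in Pold1 39 bases after it. Mcm3 and Mcm7 each carried 2 matches, in Mcm3 at 19 and 38 bases after the start and in Mcm7 at 165 bases before and 16 bases after it. In the Mcm7 window an E2F match shared bases with a CCAAT box, the only such case among the 40. The other genes with a match were Cdc6, Cdt1, Orc1, Mcm5, Mcm6, Gins3, Pole2, Rfc3, Lig1, Uhrf1, Hells and E2f2. As a description, the median log2 fold change between the primidone and tamoxifen groups was 0.70 over the 16 genes with a match and 0.62 over the 24 without. Between primidone and control these medians were 0.68 and 0.37, and between tamoxifen and control -0.14 and -0.30.

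Neonatal tamoxifen was compared with control to ask how the adult uterus differed long after the dosing. Hmgn2, a nucleosome-binding protein, fell, and no replication gene rose. The other genes lay close to control or modestly under it: 42 of 48 had a negative log2 fold change, with a median of -0.21 against 0.00 over all tested genes (edgeR quasi-likelihood fit). By edgeR 1 of 48 genes passed an adjusted p under 0.05 as lower, where 0.961% of all tested genes did. At an unadjusted p under 0.05, 7 of 48 were lower, against 8.95% of all genes. That number was 4 without control 1 or control 3, 2 without tamoxifen 2 and 17 without primidone 1. In 18 of 48 genes all 3 tamoxifen libraries lay under all 3 controls, against 13.4% of all genes, Slbp by less than the rounding of its values. DESeq2 called 2 of 48 lower (Hmgn2 and Tk1), against 3.97% of all genes. When primidone 1 was left out of the fit, where its spread had entered the shared estimate of error, edgeR called 5 of 48 lower (Hmgn2, Tk1, Lig1, Mcm10 and Chaf1b), against 1.77% of all genes. That library was singled out by its values in these same genes, so leaving it out can shrink their error by construction. The counts without it are descriptions, not support for a difference.

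Levels of other cell types moved with the same contrast. The summed CPM of the 5 smooth muscle markers was 6447 to 10156 in control and 5281 to 6325 in the tamoxifen group, and that of 5 leukocyte markers was 80.0 to 89.3 and 112 to 158. The sum over 4 liver markers was 38.0 to 42.6 in control, 74.5 to 140 in the tamoxifen and 142 to 148 in the primidone group, and 3 of the 4 passed the test as higher in tamoxifen. The 3 adipocyte markers summed to 4.70 to 8.30, 6.90 to 70.9 and 15.1 to 73.2 CPM in the 3 groups. Sums overlapped between all groups for 3 endothelial markers, at 271 to 345 CPM, and for the 3 ovary markers with counts, at 1.52 to 3.42 CPM, with Amh at 0 in some. The part of these cell types in the replication genes was not tested, and in bulk RNA fewer cells of a type cannot be told apart from less RNA per cell.

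Primidone after tamoxifen was compared with tamoxifen alone to ask what the drug altered in the exposed uterus. In 47 of 48 genes the log2 fold change was positive, with a median of 0.63 against 0.02 over all tested genes. None passed the edgeR test, where 2 of all tested genes (0.0132%) passed in either direction. At an unadjusted p under 0.05 edgeR had 35 of 48 genes higher, against 6.3% of all genes, and 0 lower. The number with such a p was 21 without primidone 2, 26 without primidone 3 and 44 without primidone 1. DESeq2 called 19 of 48 higher, against 1.37% of all genes. In 16 of 48 the 3 primidone libraries lay above all 3 tamoxifen libraries, against 8.08% of all genes. Other lists differed between these groups too: the 9 estrogen-responsive uterine genes summed to 36228 to 44814 CPM in tamoxifen and 16561 to 24052 in primidone, and the 6 epithelial markers to 3439 to 3729 and 2487 to 3005. Neither pair of summed ranges overlapped, and no gene of either list was at 0. C3, Ltf and Lcn2 made up most of the estrogen sum. Within that list Pgr and Greb1 overlapped between the groups. Ccnd1 was at 71.3, 127 and 140 CPM in primidone and 66.5 to 99.5 CPM in tamoxifen. The remaining genes of that list were lower in every primidone library, as were the epithelial markers Cdh1, Krt8 and Krt19. Epcam, Krt18 and Foxa2 overlapped. Their part in the replication genes was not tested.

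The primidone libraries were unequal. Against the range of the 3 tamoxifen libraries, primidone 2 lay above it in 46 of 48 genes and primidone 3 in 47. Of all tested genes, 26.2% and 30.7% lay above it in these libraries. Primidone 1 lay above that range in 16 of 48 (33.3%), inside it in 23 and under it in 9. For all tested genes these shares were 31.4%, 39.5% and 29.1%, so the share above it was near that of all genes. The median ratio to the tamoxifen mean over the 48 genes was 1.91 in primidone 2, 1.73 in primidone 3 and 1.06 in primidone 1. Primidone 2 was the highest of all 9 libraries in 30 genes and primidone 3 in 17, shares of 62.5% and 35.4% where all tested genes gave 9.80% and 15.6%. The median coefficient of variation within the primidone group was 29.8% for these genes and 13.0% for all tested genes. In control it was 10.7% and 9.64%, and in the tamoxifen group 12.0% and 11.4%.

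Primidone 1 was singled out after its values in these genes were seen, so leaving it out raises their median difference by construction. It can also shrink their error in every comparison. Counts and p-values without it rest on 2 primidone libraries and are descriptions, not support for a difference. Without primidone 1, edgeR called 18 of 48 genes higher in primidone than in tamoxifen, against 0.404% of all genes tested. They were Mcm3, Mcm4, Mcm5, Mcm7, Cdt1, Mcm10, Pole, Pcna, Fen1, Lig1, Rrm1, Rrm2, Tyms, Tk1, Hells, Uhrf1, Chaf1a and Hmgn2. Leaving out any other library gave 0 of 48. Uhrf1, which keeps DNA methylation through replication, had the largest of these differences with Mcm10, at 2.13 (SE 0.24) and 2.13 (SE 0.28) on the log2 scale. Primidone 1 also differed from primidone 2 and 3 in other lists. Its 6 epithelial markers summed to 2487 CPM (2928 and 3005 in the others), and its 9 estrogen-responsive uterine genes to 16561 CPM (22278 and 24052). Within the estrogen list Pgr, at 307 CPM (225 and 244 in primidone 2 and 3), and Greb1, at 60.4 CPM (34.2 and 53.0), went the other way. Ltf lay between primidone 2 and 3, and the remaining genes of that list were lowest in primidone 1. The 6 stromal markers of primidone 1 summed to 4784 CPM (3125 and 4027 in the others). Primidone 2 and 3 also differed from each other in that sum, and the controls spanned 3221 to 4398 CPM. Hoxa11 of the stromal list, and Krt18 and Foxa2 of the epithelial list, lay in primidone 1 between their values in primidone 2 and 3. No marker of these lists was at 0, and their part in the replication genes of primidone 1 was not tested.

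The primidone group was also compared with control, a contrast that shares its primidone libraries with the last comparison and its controls with the first. Pola1, the catalytic subunit of DNA polymerase alpha, rose by 0.68 (SE 0.14) on the log2 scale, with an edgeR adjusted p of 0.0253. It was the 1 of 48 genes that passed as higher, where 2.14% of all genes did, and none passed as lower. The fold change was positive in 45 of 48, with a median of 0.41 against 0.01 over all genes. At an unadjusted p under 0.05 edgeR had 13 of 48 higher, against 11.3% of all genes. The number with such a p was 6 without primidone 2 or control 1, 8 without primidone 3 and 36 without primidone 1, and the median was 0.22 without primidone 2 and 0.61 without primidone 1. DESeq2 called 7 of 48 higher (Cdt1, Hells, Mcm2, Mcm3, Pcna, Pola1 and Pold1), against 5.82%. The groups did not overlap in 6 of 48 (Mcm3, Pola1, Prim2, Pold1, Pcna and E2f1), against 14.1% of all genes. As a description only, edgeR called 15 of 48 higher without primidone 1, against 1.73% of all genes. The Pola1 call was lost without any single control, without primidone 2 or without primidone 3, with adjusted p from 0.0569 to 0.110. Without primidone 1 the Pola1 difference was 0.76 (SE 0.15, edgeR adjusted p 0.0300).

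For a difference of any kind among the 3 groups, the edgeR F test called Hmgn2, Pola1 and Pold1, 3 of 48 against 3.84% of all genes. Without primidone 1 it called 26 of 48 against 4.33%, again as a description only. In Hmgn2, Pola1 and Pold1, primidone 1 lay with primidone 2 and 3, outside the range of the tamoxifen libraries.

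**Figure D1:**
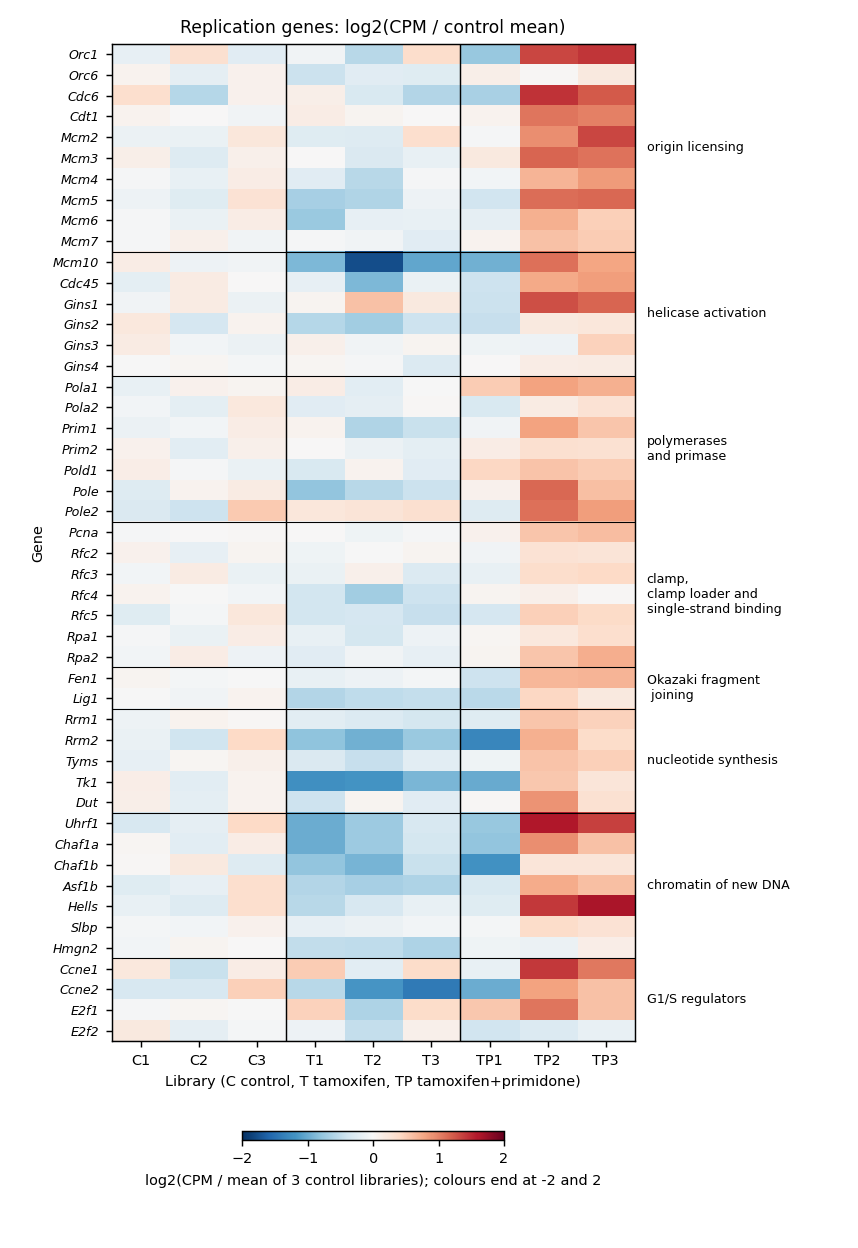
Log2 of the CPM in each library (columns) over the mean of the 3 control libraries for each of the 48 genes (rows, grouped by role). TP marks the tamoxifen-plus-primidone libraries. TP2 and TP3 are red over most rows while TP1 is pale or blue in many, and the tamoxifen libraries T1 to T3 are mostly blue or pale.

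The origin licensing genes encode the origin recognition complex subunits Orc1 and Orc6, the loading factors Cdc6 and Cdt1, and the helicase subunits Mcm2 to Mcm7. All 10 had a positive fold change between primidone and tamoxifen, from 0.40 to 1.21 on the log2 scale with a median of 0.84. At an unadjusted edgeR p under 0.05, 9 were higher, where 6.3% of all tested genes were. Between tamoxifen and control 9 of 10 were negative, with a median of -0.18, and none passed. Mcm3, a subunit of the helicase ring, was at 25.7, 19.8 and 25.4 CPM in control libraries 1 to 3, at 23.8, 19.4 and 21.2 in the tamoxifen libraries, and at 27.2, 53.0 and 50.3 in the primidone libraries. The 3 primidone libraries lay above all others, primidone 1 by a small margin, and control and tamoxifen overlapped. The difference was 1.02 (SE 0.23) from tamoxifen and 0.88 (SE 0.23) from control, with edgeR adjusted p of 0.13 and 0.057, and without primidone 1 it was 1.26 (SE 0.14, adjusted p 0.0101) and 1.13 (SE 0.14, adjusted p 0.00707).

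Cdt1, which loads the helicase with Cdc6, was at 9.25, 8.83 and 8.36 CPM in control, 9.73, 9.18 and 8.89 in tamoxifen, and 9.23, 18.4 and 17.7 in primidone. Primidone 1 sat among the controls and tamoxifen libraries while primidone 2 and 3 stood well above, and the groups overlapped through that library. The difference from control was 0.78 (SE 0.23, edgeR adjusted p 0.074), and without primidone 1 it was 1.04 (SE 0.14, adjusted p 0.00871). Mcm2, Mcm4, Mcm5, Cdc6 and Orc1 had the same arrangement: in each, primidone 2 and 3 exceeded the other 7 libraries and primidone 1 did not. Mcm6 had all tamoxifen libraries (32.8 to 49.5 CPM) under all controls (50.2 to 60.5 CPM), and Mcm7 had all primidone libraries (44.8 to 64.2 CPM) above all tamoxifen libraries (36.4 to 41.9 CPM). Orc6 differed from them, since its primidone values of 14.6, 13.7 and 15.4 CPM were alike and lay above the 9.99 to 11.6 CPM of the tamoxifen libraries.

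Helicase activation needs Mcm10, Cdc45 and the 4 GINS subunits. All 6 had positive fold changes between primidone and tamoxifen, from 0.09 to 1.73. Mcm10, which triggers unwinding by the assembled helicase, was at 4.81, 4.07 and 4.16 CPM in control, 2.34, 1.27 and 2.12 in tamoxifen, and 2.22, 9.30 and 7.52 in primidone. The tamoxifen libraries and primidone 1 were all under the controls, and primidone 2 and 3 were all above them. The log2 difference was -1.18 (SE 0.46) between tamoxifen and control and 1.73 (SE 0.46) between primidone and tamoxifen, with edgeR adjusted p of 0.21 and 0.17. Without primidone 1, left out after such values were seen, these differences were -1.18 (SE 0.26, adjusted p 0.0458) and 2.13 (SE 0.28, adjusted p 0.0127). Gins1 and Cdc45 were likewise highest in primidone 2 and 3, and Gins2 was lower in every tamoxifen library than in every control. By contrast, Gins3 and Gins4 varied little, with differences between primidone and tamoxifen of 0.09 (SE 0.23) and 0.19 (SE 0.10).

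Among polymerases and primase, all 7 genes had positive fold changes between primidone and both other groups. Pola1 was at 10.2, 11.9 and 11.6 CPM in control, 12.5, 9.68 and 11.2 in tamoxifen, and 16.0, 19.6 and 18.5 in primidone. All 3 primidone libraries exceeded the other 6, and control and tamoxifen overlapped. The log2 difference of primidone from tamoxifen was 0.70 (SE 0.14, edgeR adjusted p 0.096), and without primidone 1 it was 0.77 (SE 0.15, adjusted p 0.0611). Pold1, the catalytic subunit of polymerase delta, was at 16.0, 14.4 and 13.3 CPM in control, 11.8, 15.3 and 12.4 in tamoxifen, and 19.5, 21.6 and 20.7 in primidone. These groups were arranged as for Pola1, with primidone apart and the others overlapping. The difference was 0.64 (SE 0.13, adjusted p 0.10) from tamoxifen and 0.50 (SE 0.13, adjusted p 0.055) from control. Without primidone 1 these were 0.68 (SE 0.15, edgeR adjusted p 0.0956) and 0.54 (SE 0.15, adjusted p 0.0742).

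Pole, the catalytic subunit of polymerase epsilon, was at 4.73, 5.92 and 6.31 CPM in control, 3.26, 3.86 and 4.19 in tamoxifen, and 6.02, 12.5 and 8.60 in primidone. Every tamoxifen library was under every control and every primidone library, and primidone 1 lay inside the control range. The difference between primidone and tamoxifen was 1.26 (SE 0.27, edgeR adjusted p 0.11), and without primidone 1 it was 1.48 (SE 0.23, adjusted p 0.0283). Prim2, the large primase subunit, was narrowly higher in all primidone libraries, at 12.0 to 13.5 CPM, than in the other 6, at 9.34 to 11.7 CPM. Pola2, Prim1 and Pole2 overlapped between the primidone group and both others.

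**Figure D2:**
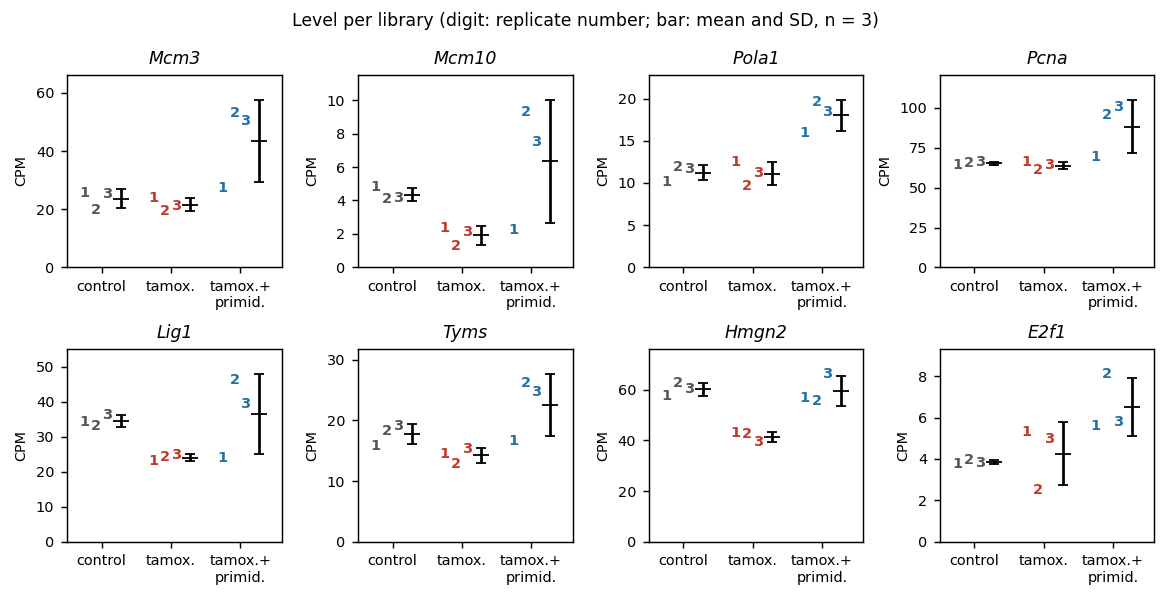
CPM in each library (digits are replicate numbers) with the group mean and SD (n = 3) for the gene of each role with the smallest p for a difference among groups. In Pola1 all primidone digits lie above the other groups, in Lig1 and Mcm10 primidone 1 lies at the tamoxifen level, and in Hmgn2 the 3 tamoxifen digits lie under all others.

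Pcna is the sliding clamp that holds polymerases on DNA, the Rfc proteins load it, and Rpa1 and Rpa2 coat single strands. All 7 genes were positive between primidone and tamoxifen, from 0.18 to 0.62 on the log2 scale, and all 7 were negative between tamoxifen and control, with a median of -0.15. Pcna was at 64.2, 65.3 and 66.2 CPM in control, 65.8, 61.3 and 64.5 in tamoxifen, and 69.1, 95.3 and 101 in primidone. Control and tamoxifen were within a few CPM of each other, and the primidone libraries all lay above them, primidone 1 only just. Its difference from control was 0.44 (SE 0.12, edgeR adjusted p 0.065), and without primidone 1 it was 0.59 (SE 0.08, adjusted p 0.00877).

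Rfc4, a small subunit of the clamp loader, was at 6.45, 6.08 and 5.88 CPM in control, 4.75, 3.78 and 4.6 in tamoxifen, and 6.39, 6.59 and 6.26 in primidone. The tamoxifen libraries lay under all others, and the 3 primidone libraries were alike and overlapped the controls. The log2 difference was -0.49 (SE 0.17, edgeR adjusted p 0.17) between tamoxifen and control and 0.55 (SE 0.17, adjusted p 0.21) between primidone and tamoxifen. Without primidone 1 the latter was 0.55 (SE 0.20, edgeR adjusted p 0.32). Rfc2, the clamp loader gene with the highest FPKM, was at 38.2, 31.9 and 37.4 CPM in control, 33.7, 35.6 and 37.1 in tamoxifen, and 34.0, 43.6 and 42.9 in primidone, so that all groups overlapped. Rfc3 and Rfc5 were highest in primidone 2 and 3, and Rpa1 and Rpa2 lay above the tamoxifen range in all 3 primidone libraries.

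Okazaki fragments on the lagging strand are trimmed by the flap nuclease Fen1 and sealed by DNA ligase Lig1. Lig1 was at 34.4, 33.0 and 36.2 CPM in control, 23.0, 24.3 and 24.8 in tamoxifen, and 23.8, 46.2 and 39.5 in primidone. The tamoxifen libraries and primidone 1 lay together well under the controls, and primidone 2 and 3 above them. Between tamoxifen and control the log2 difference was -0.52 (SE 0.20, edgeR adjusted p 0.20) in the fit of all libraries. Without primidone 1, left out after such values were seen, it was -0.52 (SE 0.09, edgeR adjusted p 0.0228), as a description only. Fen1 was at 14.1 to 16.3 CPM in control and tamoxifen, 11.8 CPM in primidone 1, and 24.9 and 25.3 CPM in primidone 2 and 3.

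Nucleotide synthesis is represented by the ribonucleotide reductase subunits Rrm1 and Rrm2, thymidylate synthase (Tyms), thymidine kinase (Tk1) and the dUTPase gene Dut. All 5 were negative between tamoxifen and control, with a median of -0.32. In 4 of the 5 (all but Dut) the groups did not overlap, against 13.4% of all tested genes. At an unadjusted edgeR p under 0.05, 1 of the 5 was lower, against 8.95% of all genes. Tk1, which salvages thymidine in S phase, was at 10.1, 7.98 and 9.66 CPM in control, 3.93, 4.05 and 4.88 in tamoxifen, and 4.6, 13.5 and 10.9 in primidone. The tamoxifen libraries and primidone 1 were about level with each other and under every control. The log2 difference was -1.11 (SE 0.33, edgeR adjusted p 0.12) between tamoxifen and control. Without primidone 1, left out after such values were seen, it was -1.10 (SE 0.18, edgeR adjusted p 0.0126), as a description only. Between primidone and tamoxifen it was 1.17 (SE 0.33, adjusted p 0.18), and without primidone 1 it was 1.5 (SE 0.19, adjusted p 0.0117).

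Tyms, which makes thymidylate, was at 15.8, 18.2 and 19.1 CPM in control, 14.5, 12.9 and 15.3 in tamoxifen, and 16.7, 26.2 and 24.7 in primidone. Here primidone 1 lay inside the control range and above the tamoxifen libraries. The difference between primidone and tamoxifen was 0.66 (SE 0.17, edgeR adjusted p 0.15), and without primidone 1 it was 0.84 (SE 0.13, adjusted p 0.0267). Rrm2, the reductase subunit made in S phase, showed the opposite position of that library: primidone 1, at 3.72 CPM, was the lowest of the 9, under the 4.74 to 5.52 CPM of tamoxifen, while primidone 2 and 3 were at 15.1 and 11.8 CPM. Dut, which keeps uracil out of DNA, overlapped between all groups.

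The chromatin genes had the largest median of any role between primidone and tamoxifen, 1.03, and the lowest between tamoxifen and control, -0.62. Hmgn2 was at 57.6, 62.6 and 60.1 CPM in control, 42.8, 42.5 and 39.2 in tamoxifen, and 56.7, 55.5 and 66.2 in primidone. The tamoxifen libraries lay under all others, and control and primidone overlapped. It fell by 0.54 (SE 0.09, edgeR adjusted p 0.024) with tamoxifen, and the call was lost without any single control or tamoxifen library, with adjusted p from 0.0572 to 0.0960. Between primidone and tamoxifen the difference was 0.52 (SE 0.09, adjusted p 0.072), and without primidone 1 it was 0.55 (SE 0.10, adjusted p 0.04997). Processed copies of Hmgn2 exist in the genome, and the sources used here do not say how reads shared with them were counted.

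Uhrf1 and Hells, a chromatin remodeller, stood far above all other libraries in primidone 2 and 3. Uhrf1 was at 45.0 and 38.1 CPM there, 7.45 to 11.9 CPM in tamoxifen, 11.9 to 19.5 CPM in control and 8.76 CPM in primidone 1. Hells was at 19.3 and 22.4 CPM in primidone 2 and 3, 6.13 CPM in primidone 1, 4.96 to 6.57 CPM in tamoxifen and 6.05 to 9.15 CPM in control. The histone chaperone genes Chaf1a, Chaf1b and Asf1b, and Slbp, which binds histone mRNA, had all tamoxifen libraries under all controls, except that for Slbp tamoxifen 3 and control 2 were both at 26.0 CPM. Chaf1b was lowest in primidone 1, at 8.35 CPM.

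Among regulators of S phase entry, E2f1, an activating E2F factor, was at 3.76, 3.96 and 3.80 CPM in control, 5.29, 2.51 and 4.96 in tamoxifen, and 5.58, 8.11 and 5.79 in primidone. All 3 primidone libraries lay above the others, and tamoxifen 2 was the lowest. Its difference from control was 0.76 (SE 0.29, edgeR adjusted p 0.15). E2f2 was the 1 gene with a negative fold change between primidone and tamoxifen, -0.13 (SE 0.18), and the 1 whose highest library, control 1 at 10.8 CPM, was not a primidone library. Ccne1 and Ccne2, the cyclins E that activate Cdk2, were highest in primidone 2 and 3, at 5.12 and 4.0 CPM and at 4.15 and 3.55 CPM.

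**Figure D3:**
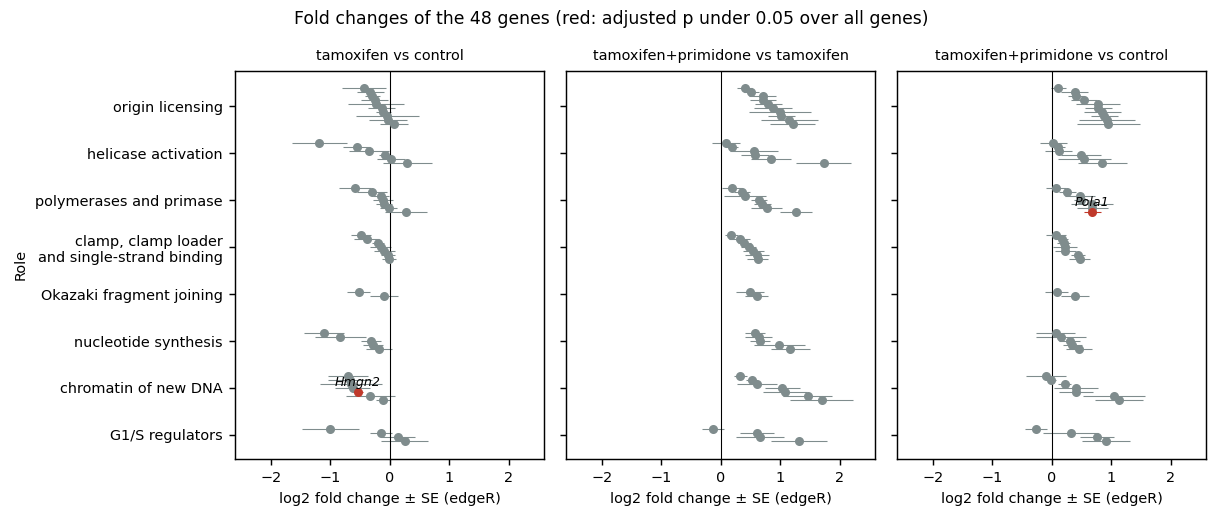
Log2 fold change (edgeR, error bars are SE) of each of the 48 genes, sorted within its role, in the 3 comparisons. Red marks the genes with an adjusted p under 0.05 over all genes tested, Hmgn2 between tamoxifen and control and Pola1 between primidone and control; in the middle panel 47 of 48 points lie right of 0.

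Between genes, levels were compared per length as the deposited FPKM, which divides by gene length and library total. Over the 9 libraries the 48 genes spanned 0.494 FPKM (Orc1) to 57.7 FPKM (Pcna), with a median of 4.87 FPKM against 6.37 FPKM over all tested genes. Pcna and Hmgn2 headed the order. In control Pcna was at 50.8 ± 0.98 FPKM and Hmgn2 at 47.1 ± 2.5 FPKM (SD, n = 3), and in the tamoxifen group at 49.9 ± 1.2 and 32.6 ± 1.6 FPKM. Rfc2 came next, at 23.1 ± 1.9 FPKM in control and 23.0 ± 1.2 FPKM in tamoxifen. Polymerase catalytic subunits were low, with Pola1 at 1.98 ± 0.18 FPKM, Pold1 at 3.08 ± 0.29 FPKM and Pole at 0.778 ± 0.11 FPKM in control. Of the helicase subunits, Mcm7 was at 14.6 ± 1.1 FPKM and Mcm3 at 7.63 ± 0.99 FPKM in control, and Mcm3 and Mcm5, at 7.95 ± 1.4 FPKM, did not differ beyond their spread.

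**Figure D4:**
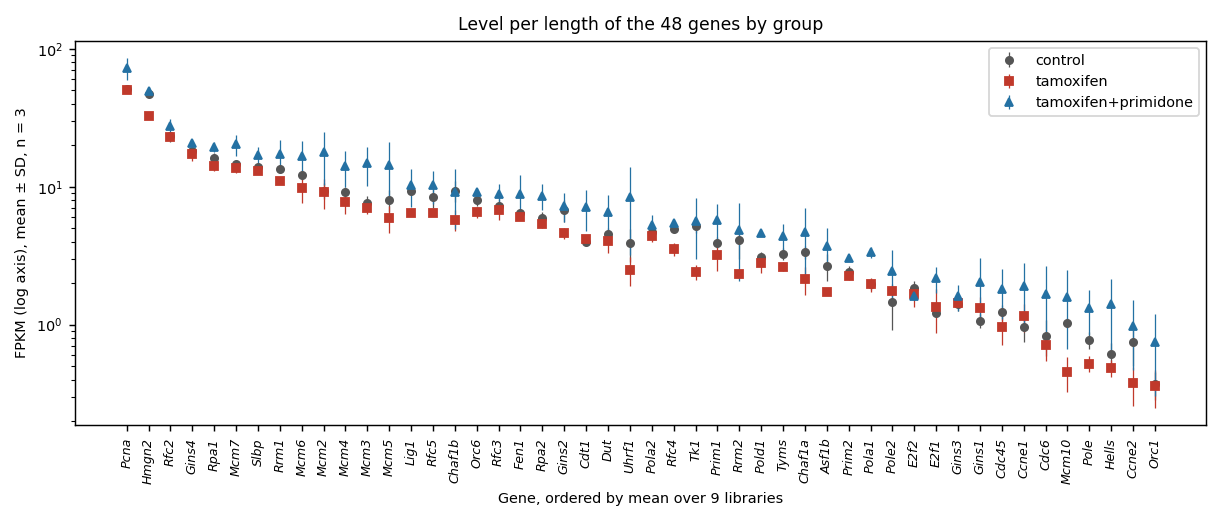
FPKM on a log axis (mean and SD of 3 libraries per group) for the 48 genes ordered by their mean over the 9 libraries, from Pcna to Orc1. The primidone mean (triangles) is the highest in most genes, and in many its bars are the longest. Exceptions include Orc6, Pold1, Pola1, Gins4, Rfc4, Prim2, E2f1 and E2f2.

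Other genes of the same processes were read from lists of replication, nucleotide synthesis and mitotic genes. Of 42 symbols listed for other replication genes, 41 were found in the count table. All 41 were tested, and 0 passed in any of the 3 comparisons by edgeR. Between primidone and tamoxifen 40 of the 41 were positive with a median of 0.32, and the smallest p was that of Dnmt1, the maintenance DNA methyltransferase, at 0.49 (SE 0.14, adjusted p 0.18). Of 27 other nucleotide synthesis genes 3 rose between control and primidone by edgeR: Cad, which starts pyrimidine synthesis, by 0.90 (SE 0.13, adjusted p 0.0078), Umps, which completes it, by 0.53 (SE 0.12, adjusted p 0.039), and Impdh1, of guanine nucleotide synthesis, by 0.54 (SE 0.14, adjusted p 0.047). Of all tested genes, 2.14% passed as higher between control and primidone. The median of the nucleotide synthesis list between primidone and tamoxifen was 0.24.

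Mitotic genes were arranged differently. All 15 were negative between tamoxifen and control, with a median of -1.93, and 5 fell: Ccnb2, Bub1b, Cdc20, Kif20a and Cenpf, by 1.87 to 2.47 on the log2 scale (edgeR adjusted p 0.027 to 0.044). Of all tested genes, 0.961% passed as lower there. All 15 were positive between primidone and tamoxifen, with a median of 1.20, and all 15 negative between primidone and control, with a median of -0.73, none passing in either. The mean level per library, as log2 CPM relative to the 9-library mean, shows the contrast with replication. The mitotic list was at 0.71, 0.88 and 1.12 in control, -0.77, -1.04 and -0.98 in tamoxifen, and -1.06, 0.72 and 0.42 in primidone. The 48 replication genes were at -0.04, -0.10 and 0.07 in control, -0.30, -0.39 and -0.24 in tamoxifen, and -0.25, 0.66 and 0.59 in primidone. Primidone 2 and 3 were above every control in the replication genes, whereas in the mitotic genes primidone 2 was at the lower end of the control range and primidone 3 under it. In the mean of each list primidone 1 was at the tamoxifen level, and the difference between the lists was not tested. By role, primidone 1 lay above the tamoxifen libraries in polymerases and primase (-0.02 against -0.28 to -0.21). The same held for the clamp, clamp loader and single-strand binding genes (-0.06 against -0.22 to -0.20). It lay under them in Okazaki fragment joining (-0.42 against -0.32 to -0.21) and inside their range in the other roles.

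**Figure D5:**
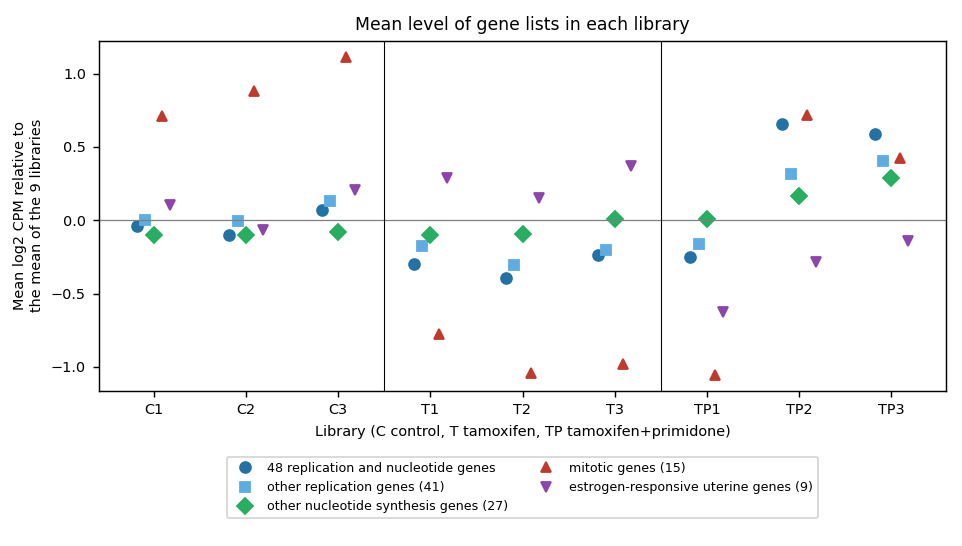
Mean log2 CPM of each gene list in each library, relative to the mean of the 9 libraries. The 48 replication genes (circles) are highest in TP2 and TP3, and TP1 lies with the tamoxifen libraries for both these and the mitotic genes. The mitotic genes (upward triangles) are highest in C3 and C2, with TP2 about level with C1.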

How the data were processed

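RNA libraries of 9 mouse uterus samples (3 control, 3 tamoxifen, 3 tamoxifen plus primidone, grouped by sample title) was analysed from the tables the authors deposited, which give read counts per gene and FPKM per gene. The submitters' processing notes name HISAT2, HTSeq, DESeq2, R 3.2.0 and the build GRCm39, with no strand setting. Counts were fitted with edgeR 4.0.16 in R 4.3.3: TMM normalisation, filterByExpr by group, robust quasi-likelihood F tests over all 9 libraries with 1 coefficient per group, and Benjamini-Hochberg adjustment over all 15186 genes tested, threshold 0.05. Of 18094 genes, the rest were filtered out. Levels between libraries are CPM, and mean levels of lists are log2 CPM with a prior count of 2. The FPKM values the authors deposited were used between genes and, as log2(FPKM + 1) or log2(FPKM + 0.1), in limma 3.58.1.

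Alternatives were DESeq2 1.42.0, limma-voom, RLE and upper-quartile factors, no low-count filter, a fit of the 6 libraries compared, a replicate block, and leaving out each library; the upper-quartile and RLE factors for counts of groups that do not overlap were added after seeing the data. The fit was tested on simulated data. Values in every library are given for the 5 genes with the smallest p per comparison, the 3 with the highest mean FPKM, and per role the smallest F-test p; of other lists, genes that passed the test or otherwise the smallest p. Primidone 1 was singled out after its values were seen. Promoter windows came from RefSeq (GRCm38.p6); the counts use another build, so no other coordinates are given. The labels name no batch. The members and lists were chosen with earlier results of these data known. Motif intervals cover counting error only. The text gives the summed level of all but 2 of the marker lists, and those 2 are not reported here.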

Additional observations from a re-analysis of the deposited data

How the results depend on the processing

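No median of the members, and no log2 fold change of the 5 members with the smallest p in each comparison, changed sign under any alternative run. The count of all genes called between tamoxifen and control was 233 in the main analysis, 546 in a fit of only the 6 libraries and 1143 by DESeq2, and members called were 1, 3 and 2. Between primidone and tamoxifen 2 genes were called in the main analysis, 9 with RLE size factors, 21 with no low-count filter, 581 by DESeq2 and 1 by limma on log2(FPKM + 1). Members called there were 0, and 19 by DESeq2. Between primidone and control 812 genes were called in the main analysis and 1889 by DESeq2. The 325 higher and 487 lower genes of the main analysis became 431 and 400 with upper-quartile factors and 602 and 318 by limma on log2(FPKM + 1). Members called there were 1, and 2 with upper-quartile factors, 7 by DESeq2, 2 by limma-voom, 3 by limma on log2(FPKM + 1) and 4 on log2(FPKM + 0.1). Leaving out 1 library at a time gave 22 to 439 genes, 0 to 85 genes and 122 to 800 genes in the 3 comparisons in this order, with members called from 0 to 5, 0 to 18 and 0 to 15, and from 0 to 26 in the F test; these counts of members were each highest without primidone 1. The median log2 fold change of the members then ranged from -0.26 to -0.18, 0.52 to 0.83 and 0.22 to 0.61. The labels tie same-numbered libraries by a number only. Correlations of their deviations were -0.134 to 0.177, and 5 of 9 libraries correlated best with their own number. Whether such libraries share more was not settled by these values, so the replicate block is an alternative only. It gave 317, 53 and 984 genes, and 1, 0 and 1 members. For single genes and comparisons, 29 values passed the threshold under an alternative and 11 no longer did. The cause of these differences was not tested. With 3 libraries a group, fold changes of genes near 1 CPM, such as Orc1 and Ccne2, carry wide errors.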

Other observations

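A list meant for replication-dependent histone genes, which supply histones to newly made DNA, did not share the arrangement of the 48 genes. It was taken by the start of the symbol, which can take in histone genes outside this class. Of the 65 genes so taken, 19 were tested, and 0 passed by edgeR in any comparison. Their median log2 fold change was 0.01 between tamoxifen and control, 0.14 between primidone and tamoxifen and -0.03 between primidone and control, with 10 of 19 positive in the second. Most replication-dependent histone mRNAs have no poly(A) tail, and the sources used here do not say whether libraries were made by poly(A) selection.

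Among 25 other regulators of the E2F and retinoblastoma pathway and of G1/S, 2 rose between control and primidone by edgeR. Of all tested genes, 2.14% did. Ccnd2, a D-type cyclin, was at 47.9, 45.0 and 41.3 CPM in control, 39.0, 39.1 and 39.6 in tamoxifen, and 56.4, 62.6 and 63.5 in primidone. All 3 primidone libraries, primidone 1 included, lay above the rest. Ccnd2 rose by 0.44 (SE 0.08, adjusted p 0.020) against control and differed by 0.63 (SE 0.08, adjusted p 0.052) from tamoxifen. Cdk4, its kinase partner, rose by 0.36 (SE 0.08, adjusted p 0.041). Cdkn1a, the inhibitor p21, was chosen after its values were seen: it was at 38.8, 38.4 and 33.1 CPM in control, 49.1, 49.1 and 48.2 in tamoxifen, and 33.6, 28.3 and 27.8 in primidone. Its tamoxifen libraries lay above all others, with a difference between primidone and tamoxifen of -0.71 (SE 0.10, edgeR adjusted p 0.052).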
